A study of Arabidopsis thaliana with 4 samples.

Results

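Methionine sulfoxide reductases repair proteins by reducing oxidised methionine back to methionine. A-type enzymes act on the S epimer of methionine sulfoxide and B-type enzymes on the R epimer, and both are usually recharged by thioredoxin. Plants carry large families of both types, and in Arabidopsis and Medicago seeds the capacity for this repair has been linked to longevity in dry storage. The members described here are the genes whose symbol begins with MSRA, MSRB or PMSR and which the platform annotation pairs, alone, with a probe set. They number 5 of the 13356 genes with a single-gene probe set: the A-type gene MSRA5 (AT2G18030) and the B-type genes MSRB3 (AT4G04800), MSRB5 (AT4G04830), MSRB6 (AT4G04840) and MSRB9 (AT4G21850). Each had 1 such probe set, so no member was chosen among probe sets by its signal. The RefSeq gene table lists 14 loci of the family, and the other 9 had no such pairing and were not analysed here. Genes paired in this way are called measured below, and the array may still carry probe sets for unpaired genes.

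The RNA came from seeds of Arabidopsis thaliana, Ler-0 background (stock NW20), incubated for 96 h in darkness at either 22 °C or 4 °C. Each temperature was represented by 2 arrays, called A and B after the letters in their titles. The seeds are labelled as dry, although the same labels describe the incubation. All samples shared the background and the darkness, and temperature was the labelled difference. Nothing in the labels says that A and B came from separate seed batches, so a p-value measures only the spread between these arrays, which may be technical. In whole seeds, a change in the share of a tissue and a change of transcript within its cells cannot be told apart.

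Values are MAS5 signals scaled to a common 2% trimmed mean of 500 on every array. Differences are 4 °C minus 22 °C on the scale log2(signal + 32), which understates the change of low signals, and their median over the 15847 probe sets tested was -0.125. Signals of different probe sets are not comparable as transcript amounts, so no order of levels is given between genes. Of 15 seed marker loci 2 had a single-gene probe set. M10, a late embryogenesis gene, had signals of 12160 ± 1939 at 22 °C and 15028 ± 1354 at 4 °C, and the oleosin gene OLEO3 had 1571 ± 377 and 503 ± 219 (SD, n = 2). Replicates differed more at 22 °C, where the log2 difference between B and A had an SD of 1.10 over the probe sets, than at 4 °C, where it was 0.646. MSRB9 and MSRA5 likewise had the wider gap at 22 °C, whereas MSRB3, MSRB5 and MSRB6 had it at 4 °C.

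MSRB9, a B-type reductase gene, had high signals in the warm seeds and very low ones in the chilled seeds. Its signals were 699 on 22 °C A, 5387 on 22 °C B, 39.2 on 4 °C A and 8.42 on 4 °C B. Both chilled arrays lay below both warm arrays, and both warm arrays were far above the pseudocount of 32, near which the chilled ones lay. The log2 difference was -5.21 ± 0.879 (SE of the limma fit, n = 2 per temperature). The family was chosen by this difference of MSRB9, which was among the lowest in the series, so it is given as a description and without a test. Only 26 of the 15847 probe sets, MSRB9 included, had a value this low or lower.

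The size of the MSRB9 difference depended on which arrays were set against each other. Against 22 °C A, the log2 difference was -3.36 for 4 °C A and -4.18 for 4 °C B. Against 22 °C B it was -6.25 for 4 °C A and -7.07 for 4 °C B. All 4 pairings, which share arrays, put the chilled seeds lower, and the smallest of them was a 17.8-fold ratio of signals.

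The warm replicates of MSRB9 themselves differed 7.71-fold, with B above A. On the log2 scale this gap was 2.89, and 298 probe sets, or 1.88% of those tested, had a gap at least as large in that direction. At 174 of these 298, both 4 °C arrays lay below both 22 °C arrays, against 31.4% of all probe sets tested. The median log2 temperature difference of the 298 was -2.19. The 22 °C B signal enters both this difference and the gap that selected them, so the 2 are not independent. The chilled replicates of MSRB9 differed 4.65-fold, with A above B, at signals near the pseudocount.

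**Figure D1:**
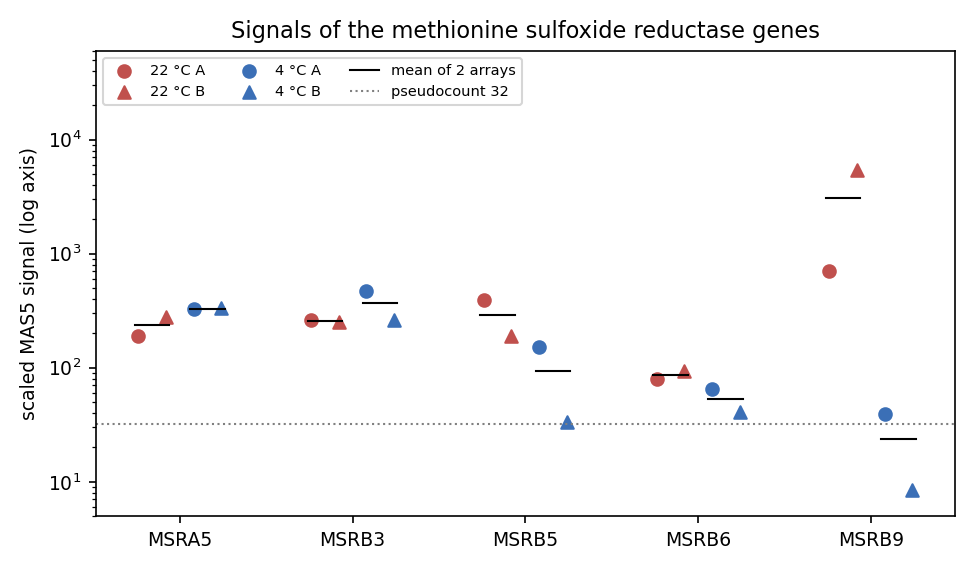
Scaled MAS5 signal (log axis) of the 5 reductase genes on each array, with circles for array A, triangles for array B, red for 22 °C, blue for 4 °C, bars at the mean of 2 arrays and a dotted line at the pseudocount of 32. MSRB9 runs from 5387 on 22 °C B to 8.42 on 4 °C B, whereas each of the other genes stays between 33.1 and 471 on all arrays. Heights are not comparable between genes as transcript amounts.

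MSRB5 was the other member with markedly lower signals in the chilled seeds, although it did not pass the test. This B-type gene had signals of 388 on 22 °C A, 190 on 22 °C B, 152 on 4 °C A and 33.1 on 4 °C B. Both chilled arrays were below both warm ones, but 4 °C A lay close to 22 °C B, and the low value of 4 °C B carried most of the difference. The log2 difference was -1.48 ± 0.629 (SE, 95% interval -2.95 to -0.0145, limma adjusted p = 0.191). Without 22 °C B it was -1.94 (adjusted p = 0.0292), a setting in which 19.4% of all probe sets passed. Leaving out 4 °C A gave -2.23 and leaving out 4 °C B gave -0.730, and neither passed. Its replicates differed in the same direction at both temperatures, A being 2.04 times B at 22 °C and 4.60 times B at 4 °C.

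MSRB6, a further B-type gene, had low signals throughout, at 79.3 (A) and 93.0 (B) in warm seeds and 65.4 (A) and 41.0 (B) in chilled seeds. The groups did not overlap, and all 4 values were within a narrow range that began just above the pseudocount. The log2 difference was -0.485 ± 0.523 (SE, 95% interval -1.70 to 0.733, limma adjusted p = 0.609). Its mean signal of 69.7 was just inside the minimum of 64 required for testing. Over all alternatives its log2 difference ran from -0.731, with a pseudocount of 0, to -0.235, after quantile normalization.

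MSRB3 encodes a B-type enzyme of the endoplasmic reticulum that is known in Arabidopsis for a part in cold tolerance. Its signals were 264 on 22 °C A, 251 on 22 °C B, 471 on 4 °C A and 262 on 4 °C B. The warm arrays were close together, 4 °C B lay between them, and 4 °C A alone stood above. The log2 difference was 0.409 ± 0.466 (SE, 95% interval -0.676 to 1.49, limma adjusted p = 0.630). Leaving out 4 °C A gave 0.0218, and leaving out 4 °C B gave 0.797.

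MSRA5, the A-type member, had signals of 190 on 22 °C A, 280 on 22 °C B, 329 on 4 °C A and 331 on 4 °C B. The chilled arrays were nearly equal and lay above both warm arrays. The log2 difference was 0.460 ± 0.439 (SE, 95% interval -0.562 to 1.48, limma adjusted p = 0.559). Leaving out 22 °C A gave 0.213 and leaving out 22 °C B gave 0.707.

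**Figure D2:**
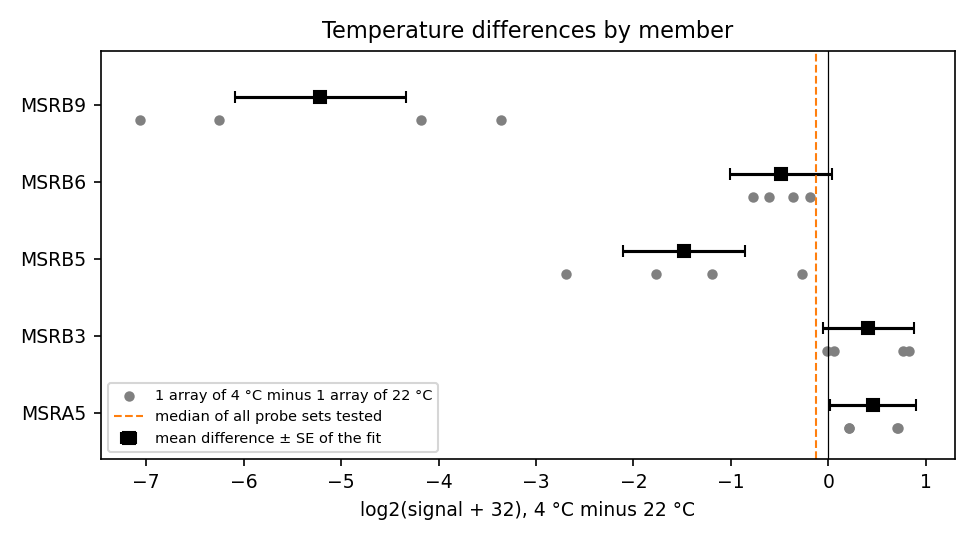
Log2 difference, 4 °C minus 22 °C on signal + 32, for each reductase gene, with black squares and bars for the fitted mean difference ± SE, grey points for the 4 pairings of 1 chilled with 1 warm array, and a dashed line at the median of all probe sets tested (-0.125). The MSRB9 pairings run from -7.07 to -3.36, and those of MSRB5 from -2.69 to -0.270.

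Set against its family, MSRB9 had a log2 difference below that of every other measured member. It lay 3.73 below MSRB5, 4.73 below MSRB6, 5.62 below MSRB3 and 5.67 below MSRA5. Since MSRB9 was picked for its difference, these gaps carry no test. Of the 4 other members, 0 passed the limma test at an adjusted p of 0.05 in either direction, against 5.05% of all probe sets tested (2.71% higher and 2.34% lower at 4 °C). At an unadjusted p under 0.05 there was 1, MSRB5, against 25.6% of all. Their median log2 difference was -0.0377 and their median absolute difference 0.472, against -0.125 and 0.684 over all probe sets. Among these 4, both chilled arrays lay above both warm ones for 1 (25.7% of all probe sets) and below them for 2 (31.4%), and the groups overlapped for 1. Over all probe sets the temperatures did not overlap at 57.1%.

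The other members did not share the spread of MSRB9 between the warm arrays. The log2 difference of 22 °C B over A was 0.494 for MSRA5, 0.167 for MSRB6, -0.0685 for MSRB3 and -0.919 for MSRB5. MSRB5, the other member with a sizeable lower value in chilled seeds, thus had its warm replicates ordered the opposite way from those of MSRB9. No cause of the warm replicate gap was tested.

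**Figure D3:**
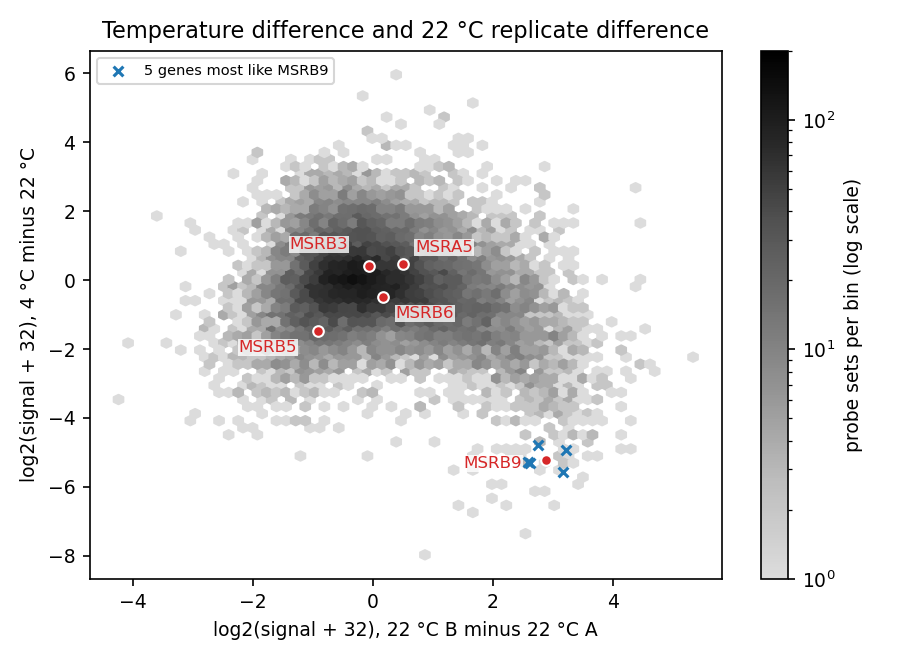
Each tested probe set (grey hexagons, shaded by number on a log scale) by its log2 difference between 22 °C B and A (x axis) and between 4 °C and 22 °C (y axis), with the 5 reductase genes as red points and the 5 genes most like MSRB9 as blue crosses. MSRB9 lies at 2.89 and -5.21, at the edge of the cloud, and the other members lie within the cloud.

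In gene order on the RefSeq annotation, the measured B-type genes belong to 2 runs of neighbours. MSRB3, MSRB4, MSRB5 and MSRB6 follow one another among the protein-coding genes, and so do MSRB7, MSRB8, MSRB9 and MSRB2. Within the first run the 3 measured genes had log2 differences of 0.409, -1.48 and -0.485. The adjacent MSRB5 and MSRB6 shared a sign, and MSRB3, which the unmeasured MSRB4 separates from MSRB5, had the opposite one. In the second run MSRB9 alone was measured. Whether transcripts of its neighbours also bind its probe set was not tested. Among the 10 protein-coding genes on each side of MSRB9, 6 had a tested single-gene probe set. Of these 0 passed in limma, against 5.05% of all probe sets tested, and with 6 genes a count of 0 does not set them apart from that share. Their log2 differences ran from -0.686 to 1.20 with a median of -0.118, far from that of MSRB9. The lowest, AT4G21870, was also the one with the largest gap between the warm arrays (B over A 1.73). Around MSRA5, 8 neighbours were tested and 1 passed, the linker histone gene HIS1-3, with a log2 difference of -4.10 (limma adjusted p = 0.0357), a call that ended when either 4 °C array was left out, without the filter on low signal and with a pseudocount of 100. HIS1-3 was singled out after its value was seen, and 5.05% of all probe sets tested passed.

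Genes with the pattern of MSRB9 over the 4 arrays were ranked by the root mean square difference of their centred log2 values from its own, among 8656 other genes. The 5 closest were AT2G30930 (0.269), AT3G16370, which encodes a GDSL-type lipase (0.270), the acid phosphatase-like genes AT1G04040 (0.292) and AT5G44020 (0.323), and AT1G12080 (0.378). AT2G30930 had warm signals of 479 (A) and 4730 (B) and chilled signals of 24.5 (A) and 14.9 (B). AT3G16370 had warm signals of 1523 (A) and 9325 (B) and chilled signals of 71.0 (A) and 62.8 (B). In all 5 the warm B array exceeded the warm A array, by 2.59 to 3.22 on the log2 scale, and had log2 temperature differences from -5.57 to -4.78. They were selected for this likeness, so the values are a description. In the same ranking of 8656 genes, MSRB5 was at rank 1427, MSRB6 at 2607, MSRA5 at 5668 and MSRB3 at 5829. The measure depends on the size of a change as well as on its shape.

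**Figure D4:**
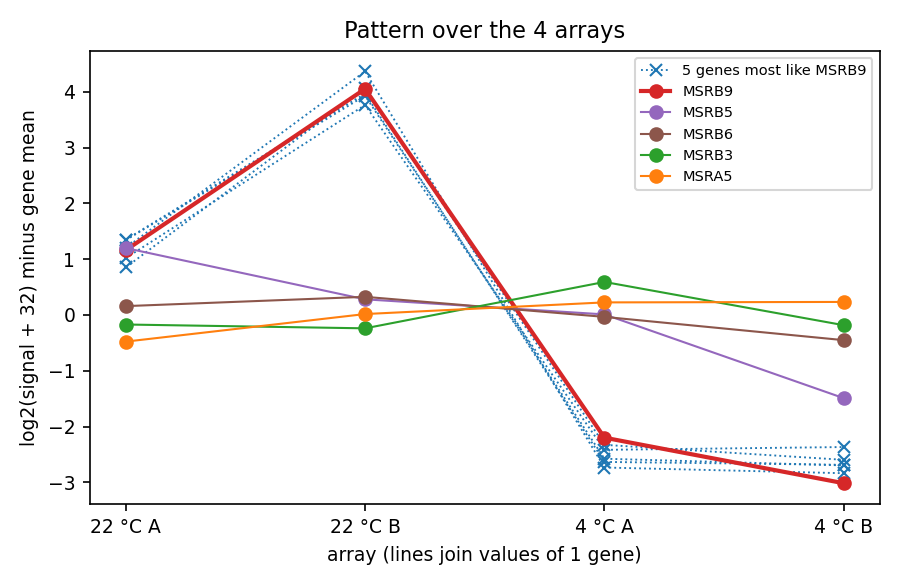
Log2(signal + 32) minus the gene's own mean on the 4 arrays, for the 5 reductase genes (solid lines) and the 5 genes most like MSRB9 (dotted blue lines). MSRB9 and its closest genes peak on 22 °C B and are low on both 4 °C arrays, whereas MSRA5, MSRB3 and MSRB6 stay within 1 log2 unit of their means.

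The wider system that recharges or parallels these reductases was read from 5 lists of loci, in which 27 genes out of 100 loci had a single-gene probe set. In limma, 0 of the 27 passed in either direction at an adjusted p of 0.05, against 5.05% of all probe sets tested, and 5 had an unadjusted p under 0.05, against 25.6%. Their median log2 difference was 0.258. These counts depended on the arrays used, as did those over all probe sets. Without 22 °C A 1 gene was higher and 7 lower, when 9.76% of all probe sets were called higher and 16.4% lower. Without 22 °C B 5 were higher and 1 lower, against 8.70% and 10.7% of all.

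Thioredoxins, the usual electron donors of the reductases, had 7 measured genes with a median log2 difference of 0.403. The plastid thioredoxin gene TY1 had warm signals of 509 (A) and 370 (B) and chilled signals of 2141 (A) and 1357 (B). Its chilled arrays were well above the warm ones, with a log2 difference of 1.90 ± 0.488 (SE, limma adjusted p = 0.0652). TY1 passed in limma when the minimum mean signal was 200 (adjusted p = 0.0416), a filter under which 11.2% of all probe sets tested passed. It did not pass after quantile normalization (0.0631). Omitting single arrays gave TY1 log2 differences from 1.57 to 2.22, and whether it then passed depended on the array omitted. TRXF2 and THX, also of plastids, had log2 differences of -1.45 ± 0.723 and -1.12 ± 0.502 (SE, limma adjusted p = 0.257 and 0.213). TRXF2 had warm signals of 67.5 (A) and 391 (B) and chilled signals of 51.0 (A) and 35.6 (B). Its difference thus came mostly from 22 °C B. THX had warm signals of 345 (A) and 619 (B) and chilled signals of 260 (A) and 146 (B). The estimates for thioredoxin genes lay on both sides of 0, and 0 of the 7 passed.

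Of 2 measured thioredoxin reductase genes, NTRC, a plastid reductase fused to its own thioredoxin, had warm signals of 266 (A) and 391 (B) and chilled signals of 718 (A) and 890 (B). The groups did not overlap, and the log2 difference was 1.23 ± 0.459 (SE, limma adjusted p = 0.147). Among 8 glutaredoxin and glutathione reductase genes the median was 0.520. The glutathione reductase gene GR1 had warm signals of 1108 (A) and 1221 (B) and chilled signals of 2910 (A) and 3740 (B). Its replicates were close at both temperatures, and its log2 difference was 1.48 ± 0.453 (SE, limma adjusted p = 0.0966).

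Enzymes that remove peroxide and superoxide, or restore ascorbate, had 6 measured genes with a median of -0.129. The thylakoid ascorbate peroxidase gene TAPX had warm signals of 104 (A) and 452 (B) and chilled signals of 4.02 (A) and 118 (B). These groups overlapped, and the log2 difference was -1.80 ± 0.847 (SE, limma adjusted p = 0.233). TAPX passed with the replicate letter as a block (limma adjusted p = 0.0275), a setting in which 18.2% of all probe sets passed. In this list 5 of 6 genes were higher on 22 °C B than on A, with a median log2 gap of 1.64, the largest of the 5 lists. Over the 5 lists together it was 18 of 27 genes, with a median gap of 0.506. The median gap over all probe sets tested was -0.0522.

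Genes of methionine synthesis and use had 4 measured members with a median of -0.776. MGL, methionine gamma-lyase, which breaks methionine down, had warm signals of 3979 (A) and 3326 (B) and chilled signals of 765 (A) and 1104 (B). The groups were well apart, with a log2 difference of -1.95 ± 0.467 (SE, limma adjusted p = 0.0560). MGL passed in limma after quantile normalization (adjusted p = 0.0474), when 5.38% of all probe sets passed. It also passed with a filter at a mean signal of 200 (0.0431), when 11.2% did. After median centring it did not pass (0.0663). Its log2 difference ran from -2.20 to -1.69 when single arrays were omitted, and whether it then passed depended on the array.

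**Figure D5:**
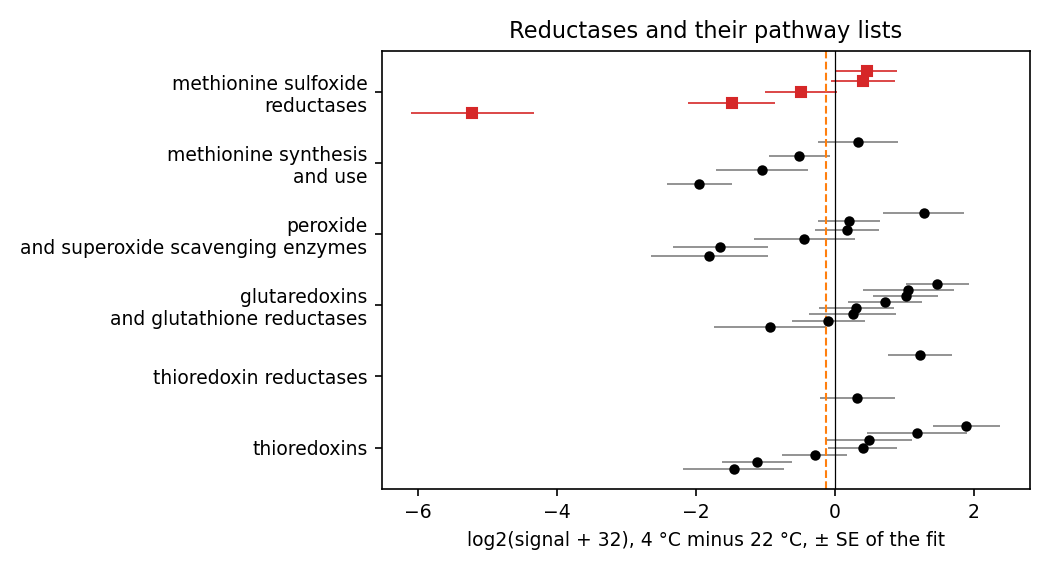
Log2 difference, 4 °C minus 22 °C on signal + 32, ± SE of the fit, for the 5 reductase genes (red squares) and the 27 measured genes of the 5 pathway lists (black points), with a dashed line at the median of all probe sets tested. Pathway genes run from -1.95 for MGL to 1.90 for TY1, and MSRB9 lies below them at -5.21.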

How the data were processed

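The authors deposited 1 table of intensities for the 4 arrays, with linear signals of 22810 probe sets, and the submitters' processing notes name MAS5. Background handling, detection calls and genome build were not given in the sources used here. The 2% trimmed mean was 100.0 on each array, as found from the values. Each array was scaled to a trimmed mean of 500, 64 control probe sets were removed, and 15847 of the remaining 22746 with a mean signal of at least 64 were tested. limma 3.58.1 in R 4.3.3 (lmFit, eBayes with trend, no covariate) was fitted to log2(signal + 32), with Benjamini-Hochberg adjustment over all of them. The fit was also run on simulated data with equal spread at both temperatures. The real warm replicates differed more than the chilled ones, so that run does not cover their unequal spread. There is no read depth, and the number of arrays limits the precision.

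The platform annotation paired 13513 probe sets with 1 gene, 503 with several and 8730 with none, and 13436 of the first matched the RefSeq table of TAIR10.1, used for names and gene order. Where a gene had several single-gene probe sets, the brightest on average stood for it. Members and lists were chosen with earlier results of these data known. Genes named are all members, the member of each list with the largest absolute difference where none passed, and the 5 genes closest to MSRB9 in pattern; TRXF2, THX, AT4G21870 and HIS1-3 were added after their values were seen. Alternatives were other pseudocounts, filters, scalings and variance models, the replicate letter as a block, averaging the probe sets of a gene, and omitting each array in turn.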

Additional observations from a re-analysis of the deposited data

How the results depend on the processing

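All 5 reductase genes kept the sign of their log2 difference under each alternative in which they were tested; MSRB5 and MSRB6 were not tested with a filter at 200. MSRB9, -5.21, was -6.74 with a pseudocount of 0 and -4.09 with one of 100, and ran from -6.66 to -3.77 with 1 array left out. The range for MSRB5 was then -2.23 to -0.730. Against 801 of 15847 probe sets called (430 higher, 371 lower), a pseudocount of 100 gave 226 (139, 87). No filter gave 2 of 22746 tested (1, 1), and a filter at 200 gave 1266 of 11275 tested (700, 566). Median centring gave 669 higher. With 1 array left out the count ran from 1 to 4142 (0 to 1547 higher, 1 to 2595 lower), and the lone array was assumed to vary like the other pair. The replicate block gave 2879 (1256, 1623); the letters are not said to pair arrays, and replicate differences correlated across probe sets with r = 0.209 between temperatures. With the block, 1 of the 4 members other than MSRB9 was lower in limma, MSRB5 (log2 difference -1.48, adjusted p = 0.0486). In that setting 10.2% of all probe sets were called lower. In the other alternatives that kept all 4 arrays, 0 of these 4 members passed, and MSRB9 is given without a test. Of the pathway genes, 0 were called. With the block 1 was higher and 2 lower, against 7.93% and 10.2% of all probe sets. A filter at 200 gave 1 and 1, against 6.21% and 5.02%. Quantile normalization gave 0 and 1, against 2.96% and 2.42%. With 1 array left out 0 to 5 were higher and 0 to 7 lower. The median over all probe sets, -0.125, was 0.0448 after quantile normalization and 0.0304 after median centring. The causes were not tested.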
